A study of Mus musculus with 6 samples.

Results

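Small nucleolar RNA (snoRNA) host genes are genes whose introns carry snoRNAs. The genes described here are Gas5, Snhg1, Snhg3, Snhg4, Snhg6, Snhg8, Snhg11, Snhg12, Snhg17 and Snhg20, chosen by symbol, and their rows were found by matching the Ensembl identifiers of the count files to GENCODE M21. Of the 10 genes, 9 had a row among the 60354 features of each file and all 9 were among the 18580 features tested. Snhg4 was not matched to a gene of that symbol in GENCODE M21 and is not analysed here.

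The RNA came from whole brains of male C57BL/6NCrSlc mice, a wild-type strain, aged 16 weeks at the start. PLDP mice (n = 3, numbered 17, 22 and 26) ate a modified AIN-93M diet containing 20% PLDP, a protease-treated product of porcine liver, for 16 weeks, and control mice (n = 3, numbered 2, 5 and 10) ate modified AIN-93M with matched calories. Both groups then went through the same behavioral tests, during which PLDP was not given, and RNA was extracted afterwards. The comparison therefore asked whether earlier PLDP feeding was followed by different RNA levels in the brain, and in bulk tissue fewer cells of a type and less RNA per cell cannot be told apart.

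In a snoRNA host gene the spliced exons form one RNA and the excised introns are trimmed to snoRNAs. Box C/D snoRNAs guide 2′-O-methylation and box H/ACA snoRNAs guide pseudouridylation, mostly of ribosomal RNA. Several host RNAs begin with a pyrimidine tract (a TOP sequence, shared with ribosomal protein mRNAs) and are degraded by nonsense-mediated decay while they are being translated, so that their level responds to translation.

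GENCODE M21 placed 33 snoRNA-type genes inside the 9 hosts on the same strand, of which 10 were in Gas5, 8 in Snhg1, 5 in Snhg12, 3 in Snhg17, 2 each in Snhg3 and Snhg11, and 1 each in Snhg6, Snhg8 and Snhg20. Snord80 of Gas5 and Snora16a of Snhg12 each have 2 overlapping entries, which are counted separately in these numbers. Among them, 15 had TGATGA (box C) in the first 20 bases together with CTGA (box D) in the last 20, a pair found in 20.5% of the 1507 snoRNA transcripts annotated in mouse. A further 12 lacked this pair and had ACA within the last 6 bases, as 45% of all snoRNA transcripts do, and 6 had neither. The window for ACA was widened after the sequences had been seen. With ACA followed by exactly 3 bases and no such pair, 7 of the 33 matched, against 18% of all. The sequences below are 1 product of each of 8 hosts and both products of Snhg11, from the GENCODE M21 transcripts, written 5′ to 3′ on the strand of the host with these boxes in capitals (GRCm38).
Snord47 (Gas5, chr1:161038082-161038158, plus strand): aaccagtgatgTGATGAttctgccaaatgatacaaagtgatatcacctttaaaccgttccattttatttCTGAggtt
Gm25855 (Snhg1, chr19:8723993-8724064, plus strand): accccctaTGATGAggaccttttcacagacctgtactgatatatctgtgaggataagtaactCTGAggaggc
Snord87 (Snhg6, chr1:9942463-9942549, minus strand): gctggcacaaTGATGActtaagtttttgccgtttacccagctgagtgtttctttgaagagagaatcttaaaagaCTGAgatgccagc
Snora24 (Snhg8, chr3:123507937-123508066, minus strand): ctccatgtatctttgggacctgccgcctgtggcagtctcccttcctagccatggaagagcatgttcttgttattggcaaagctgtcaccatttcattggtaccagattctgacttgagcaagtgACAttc
Snora61 (Snhg12, chr4:132310240-132310369, plus strand): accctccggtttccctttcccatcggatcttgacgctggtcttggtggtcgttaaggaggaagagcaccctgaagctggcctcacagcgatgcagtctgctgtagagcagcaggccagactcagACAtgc
Snora73b (Snhg3, chr4:132352322-132352526, minus strand): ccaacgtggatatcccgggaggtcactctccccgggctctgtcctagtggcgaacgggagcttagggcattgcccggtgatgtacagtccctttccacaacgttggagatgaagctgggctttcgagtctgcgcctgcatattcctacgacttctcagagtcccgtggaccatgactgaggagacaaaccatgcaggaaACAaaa
Gm26083 (Snhg20, chr11:117077243-117077435, plus strand): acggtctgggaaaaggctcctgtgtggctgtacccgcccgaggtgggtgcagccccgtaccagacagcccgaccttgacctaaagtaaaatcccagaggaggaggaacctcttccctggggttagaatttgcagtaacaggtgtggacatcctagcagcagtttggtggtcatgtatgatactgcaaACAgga
Gm25187 (Snhg11, chr2:158378222-158378354, plus strand): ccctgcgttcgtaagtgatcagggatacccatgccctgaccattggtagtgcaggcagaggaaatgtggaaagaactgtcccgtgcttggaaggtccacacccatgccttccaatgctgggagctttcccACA
Gm25129 (Snhg11, chr2:158379534-158379666, plus strand): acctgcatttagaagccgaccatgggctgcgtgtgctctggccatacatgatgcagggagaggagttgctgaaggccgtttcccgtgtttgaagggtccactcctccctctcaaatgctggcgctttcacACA
Gm23925 (Snhg17, chr2:158359798-158359929, minus strand): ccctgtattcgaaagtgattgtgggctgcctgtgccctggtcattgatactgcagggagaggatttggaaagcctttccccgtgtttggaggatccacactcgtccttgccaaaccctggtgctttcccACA

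Snhg11 and Snhg17 lie 14057 bases apart on chromosome 2, on opposite strands, and their products resemble each other. In pairwise alignment the 5 snoRNAs of these neighbours were between 60.4% and 93.9% identical, with 75% between Gm25187 and Gm23925 and 93.9% between Gm23925 and Gm24411, both of Snhg17. Snhg12 and Snhg3 form another such pair on chromosome 4, 36989 bases apart and also on opposite strands.

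The RefSeq sequences around the starts (GRCm38.p6) were searched for a run of at least 5 C or T bases that begins with C within 5 bases of the start. Such a run was present at 4 of 10 starts of 8 hosts (40%), with 2 starts each for Gas5 and Snhg17 and none searched for Snhg6, at 31 of 75 starts of ribosomal protein genes (41.3%) and at 6027 of all 32851 (18.3%). The 4 are printed here with the run in capitals, 20 bases before and 20 from the start, and the start of Snhg11 follows as the most abundant host.
Gas5 (chr1:161035146-161035185, plus strand): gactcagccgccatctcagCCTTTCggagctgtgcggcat
Snhg8 (chr3:123508317-123508356, minus strand): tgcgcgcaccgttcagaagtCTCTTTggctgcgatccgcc
Snhg12 (chr4:132308658-132308697, plus strand): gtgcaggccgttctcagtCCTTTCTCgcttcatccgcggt
Snhg3 (chr4:132353667-132353706, minus strand): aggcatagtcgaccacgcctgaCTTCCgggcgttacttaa
Snhg11 (chr2:158375693-158375732, plus strand): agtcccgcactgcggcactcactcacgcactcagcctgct
The Gas5 run belongs to the downstream of its 2 RefSeq starts, and no run was found at the upstream one. Absence of these letters at the other starts says only that they are not in this window.

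Totals per mouse were between 18797061 and 23938729 counts, and the host genes took between 0.178% and 0.198% of them. The library of PLDP mouse 17 was farther from the other libraries (chi-square per degree of freedom between 4.465 and 5.355) than control mice were from each other (2.351 to 3.105) or PLDP mouse 22 from PLDP mouse 26 (2.431), with at most 4.489 for the other pairs across diets. Neuronal markers, 6 genes tested, summed to between 4809 and 5027 CPM (counts scaled to library size and TMM factors) with overlapping groups, and none passed the test. Markers of brainstem and spinal cord summed to between 151.9 and 163.2 CPM in control mice and between 85.61 and 117.6 in PLDP mice. Of these 6 genes, 5 were lower at an unadjusted p under 0.05, where 3.69% of all features tested were. Choroid plexus and oligodendrocyte markers had 2 of 5 lower each, microglia and astrocyte markers 1 of 5 lower each and endothelial markers 2 of 5 higher. Over all features tested, 3.69% were lower and 4.91% higher at that threshold. Summed levels did not overlap between diets for choroid plexus (725.0 to 775.9 CPM in control mice and 571.6 to 718.1 in PLDP mice), microglia (254.9 to 267.7 and 244.3 to 253.6) and endothelium (173.4 to 176.1 and 176.5 to 191.9). Most of the choroid plexus sum was Ttr (mean 708.4 CPM in control mice and 607.4 in PLDP mice), and the other markers of that list overlapped. The endothelial gap was small, 176.1 against 176.5 CPM, and Slco1a4 there had a log2 fold change of -0.139, with 4 of 5 genes above 0. The part of these differences in the results below was not tested.

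Levels of the host genes spanned 2 orders of magnitude. Snhg11, a transcript of neurons, was at 201.3 CPM per kb of exon as the mean of 6 mice (range 186.7 to 210.6), above 99.2% of the features tested. It made up between 89.0% and 90.54% of the summed CPM of the 9 hosts. Gas5 followed at 28.77 CPM per kb (27.03 to 30.58) and Snhg8 at 22.43 (20.15 to 23.81), above 89.2% and 85.8% of features. The ranges of these 3 genes did not overlap. Snhg6 was at 9.152 CPM per kb, Snhg20 at 7.253 and Snhg12 at 6.685, and neighbours in this order overlapped in range. Snhg1 at 3.26 CPM per kb was below them, and Snhg17 at 1.549 and Snhg3 at 1.095 overlapped each other at the bottom. Exon length here is the union over all annotated transcripts, which in most of these genes takes in much of the introns, so that a level per kb depends on that annotation.

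**Figure D1:**
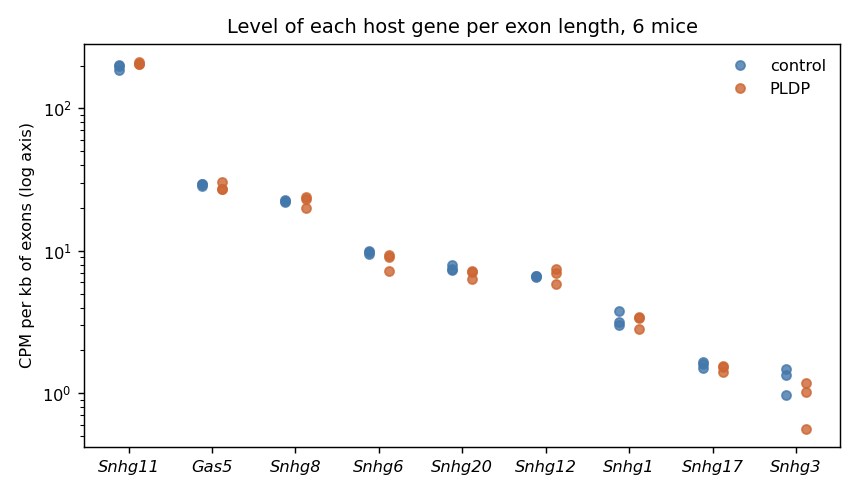
CPM per kb of annotated exon (log axis) of the 9 host genes in 3 control mice and 3 PLDP mice, 1 point per mouse. Snhg11 stood at 186.7 or more in every mouse and Snhg3 at 1.476 or less.

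The diets were then compared for each host gene. At an unadjusted p under 0.05, 1 of 9 was higher in PLDP mice, where 4.91% of all features tested were, and none of 9 was lower, where 3.69% were. No host gene had a Benjamini-Hochberg adjusted p under 0.05, which 6 features (0.0323%) had. The groups did not overlap for 3 hosts, with 1 higher (7.29% of features) and 2 lower (6.9%). The median log2 fold change of the hosts was -0.054, beside -0.0006 over all features tested, and 2 of 9 were above 0.

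**Figure D2:**
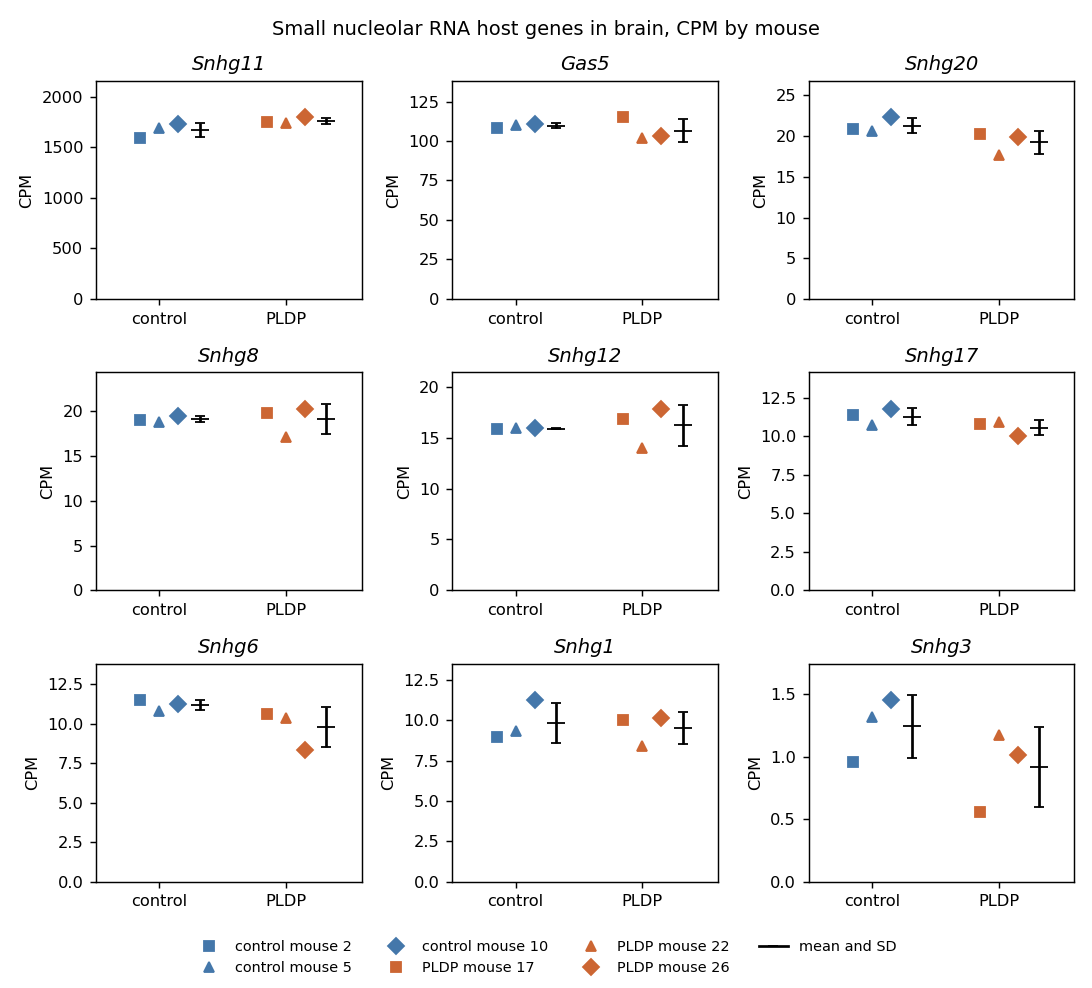
CPM of the 9 host genes in each mouse, with the mean and SD of each group (n = 3) and every axis starting at 0. With TMM scaling the PLDP mice lay above the control mice for Snhg11 and below them for Snhg6 and Snhg20.

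Snhg11 (ENSMUSG00000044349, chr2:158375638-158386145, plus strand), typed as protein-coding in GENCODE M21 and as a noncoding RNA in RefSeq, was the host gene that rose. CPM was 1591, 1689 and 1729 in control mice 2, 5 and 10, and 1751, 1735 and 1795 in PLDP mice 17, 22 and 26. Every PLDP mouse was above every control mouse, although the gap between PLDP mouse 22 and control mouse 10 was much smaller than the range within the controls. The separation was also present with RLE and upper-quartile factors, but with scaling to library size only PLDP mouse 22 (1731 CPM) was below control mouse 10 (1739 CPM) and the groups overlapped. Means were 1670 ± 71.15 and 1760 ± 31.12 CPM (SD, n = 3 each), a fold change of 1.054 with a 95% confidence interval of 1.001 to 1.11. The log2 fold change was 0.076 (SE 0.035, edgeR quasi-likelihood test, Benjamini-Hochberg adjusted p = 0.565). The unadjusted call was lost when control mouse 2 (log2 fold change 0.041), control mouse 5 (0.084), PLDP mouse 22 (0.085) or PLDP mouse 26 (0.061) was left out, and with library size only (0.074), DESeq2 (0.076) and the edgeR likelihood ratio test (0.076), which makes 7 of 15 alternatives.

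Both snoRNAs of Snhg11 had a row of their own. Gm25129 had 35, 36 and 37 counts in control mice and 42, 44 and 31 in PLDP mice, so the groups overlapped. Gm25187, which lies in an annotated exon of the host, had 0 counts in every mouse.

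Gas5 (ENSMUSG00000053332, chr1:161034422-161038539, plus strand), known as a transcript that accumulates in growth-arrested cells and as the host of 10 annotated snoRNAs, did not pass the test. CPM was 108.1, 110.3 and 110.9 in control mice 2, 5 and 10, and 115.0, 101.6 and 103.0 in PLDP mice 17, 22 and 26. The control mice lay close together, and the PLDP mice fell on both sides of them. Means were 109.8 ± 1.455 and 106.5 ± 7.344 CPM (SD, n = 3 each), with a log2 fold change of -0.043 (95% confidence interval -0.149 to 0.063, edgeR Benjamini-Hochberg adjusted p = 0.866). The interval corresponds to fold changes between 0.902 and 1.044. Without PLDP mouse 17 the log2 fold change was -0.102 and passed the unadjusted threshold, whereas it was -0.011 without PLDP mouse 22 and -0.021 without PLDP mouse 26.

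Snhg6 (ENSMUSG00000098234, chr1:9941959-9944118, minus strand) hosts the box C/D snoRNA Snord87. CPM was 11.5, 10.84 and 11.25 in control mice and 10.65, 10.36 and 8.338 in PLDP mice. The 2 groups did not overlap, and PLDP mouse 26 was farthest from the controls. The log2 fold change was -0.188 (SE 0.104, 95% confidence interval -0.407 to 0.031, edgeR Benjamini-Hochberg adjusted p = 0.638), which missed the threshold. An exon of Snhg6 shares 127 bases with Mcmdc2 on the other strand, and Mcmdc2 was at 2.65 CPM or less in every mouse.

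Snhg20 (ENSMUSG00000086859, chr11:117076008-117078955, plus strand) contains Gm26083, annotated as a small Cajal body RNA. CPM was 20.88, 20.64 and 22.31 in control mice and 20.27, 17.65 and 19.88 in PLDP mice. The groups did not overlap, and PLDP mouse 22 was the lowest. The log2 fold change was -0.145 (SE 0.077, 95% confidence interval -0.307 to 0.017, edgeR Benjamini-Hochberg adjusted p = 0.627). Without PLDP mouse 17 both Snhg6 (log2 fold change -0.249) and Snhg20 (-0.186) passed the unadjusted threshold. In the other direction, Snhg6 was at -0.094 without PLDP mouse 26 and Snhg20 at -0.085 without PLDP mouse 22, and neither passed. In the fit without PLDP mouse 17, 3 of 9 host genes were called lower, where 5.69% of all features were, and 12.5% of features were called in either direction.

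The remaining 5 hosts did not pass the test and their groups overlapped. Snhg12 (ENSMUSG00000086290, chr4:132308623-132311024, plus strand), which hosts Snora61 and Snord99, was at 15.83, 15.92 and 15.91 CPM in control mice and at 16.83, 14.0 and 17.85 in PLDP mice. The SD was 0.05193 CPM among control mice and 1.993 among PLDP mice, and the PLDP values lay on both sides of the controls. Its log2 fold change was 0.025 (95% confidence interval -0.168 to 0.217, edgeR Benjamini-Hochberg adjusted p = 0.966). Snhg8 (ENSMUSG00000104960, chr3:123507552-123508404, minus strand), which hosts Snora24, was at 19.05, 18.87 and 19.5 CPM in control mice and at 19.85, 17.19 and 20.31 in PLDP mice. PLDP mouse 22 was again the lowest and PLDP mouse 26 the highest, with a log2 fold change of -0.006 (95% confidence interval -0.173 to 0.162, edgeR Benjamini-Hochberg adjusted p = 0.993).

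Snhg1 (ENSMUSG00000108414, chr19:8723475-8726443, plus strand), which hosts 8 annotated snoRNAs, was at 8.948, 9.345 and 11.25 CPM in control mice and at 9.996, 8.385 and 10.16 in PLDP mice. Control mouse 10 was the highest, and the log2 fold change was -0.054 (95% confidence interval -0.294 to 0.185, edgeR Benjamini-Hochberg adjusted p = 0.937). Snhg17 (ENSMUSG00000085385, chr2:158353700-158361580, minus strand) was at 11.35, 10.71 and 11.79 CPM in control mice and at 10.79, 10.9 and 9.995 in PLDP mice. The groups overlapped only through control mouse 5, and the log2 fold change was -0.092 (95% confidence interval -0.286 to 0.103, edgeR Benjamini-Hochberg adjusted p = 0.833). Its neighbour Snhg11 was thus higher in PLDP mice while Snhg17 was not called, and the difference between the 2 genes was not tested.

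Snhg3 (ENSMUSG00000085241, chr4:132348014-132353686, minus strand), host of the Snora73 pair, rested on few reads. It had 20, 29 and 30 counts in control mice and 12, 28 and 19 in PLDP mice. PLDP mouse 17 was the lowest and the groups overlapped, with a log2 fold change of -0.435 (95% confidence interval -1.069 to 0.199, edgeR Benjamini-Hochberg adjusted p = 0.733). Leaving out PLDP mouse 17 moved the log2 fold change to -0.175, and leaving out PLDP mouse 22 instead moved it to -0.682, and neither passed the unadjusted threshold. Exons of Snhg3 share 135 bases with Rcc1 on the same strand, so reads there could be counted for either gene or for neither.

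**Figure D3:**
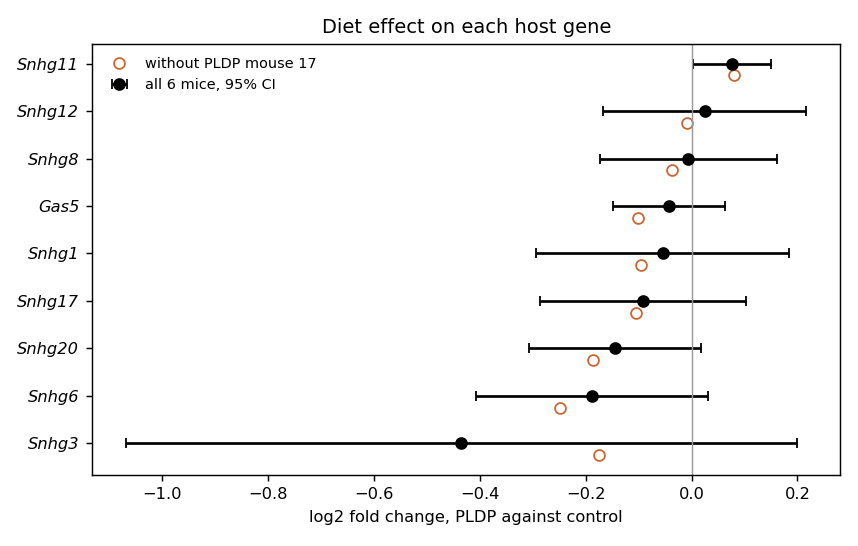
Log2 fold change (PLDP against control) of the 9 host genes with 95% confidence intervals from the fit to all 6 mice (filled), and without PLDP mouse 17 (open). The interval of Snhg11 alone lies above 0, and without mouse 17 every host except Snhg3 and Snhg11 shifted downward.

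Several host genes had their lowest value in the same mouse. PLDP mouse 22 had the lowest value for 5 of the 9, namely Gas5, Snhg1, Snhg8, Snhg12 and Snhg20, where it was lowest for 16.9% of all features. Ribosomal protein genes were also low in that mouse. Their summed CPM was 12420, 12530 and 12310 in control mice and 13090, 11470 and 12000 in PLDP mice 17, 22 and 26. PLDP mouse 22 was lowest for 53 of 75 ribosomal protein genes tested and PLDP mouse 17 highest for 51. The high end differed, since PLDP mouse 17 was highest for 1 of 9 hosts, control mouse 10 for 4 and PLDP mouse 26 for 3, beside 21.7%, 14.5% and 16.4% of all features. Without PLDP mouse 17, 35 of 75 ribosomal protein genes were called lower, where 5 of 75 were in the fit to all mice. The share of all features called lower was 5.69% without that mouse and 3.69% with it. The host sum without Snhg11 was 196.7, 197.9 and 204.4 CPM in control mice and 203.9, 181.3 and 190.5 in PLDP mice, 199.7 ± 4.137 against 191.9 ± 11.38 (SD, n = 3 each). With Snhg11 the sums were 1869 ± 74.58 and 1952 ± 34.8 CPM, and in both cases the groups overlapped.

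**Figure D4:**
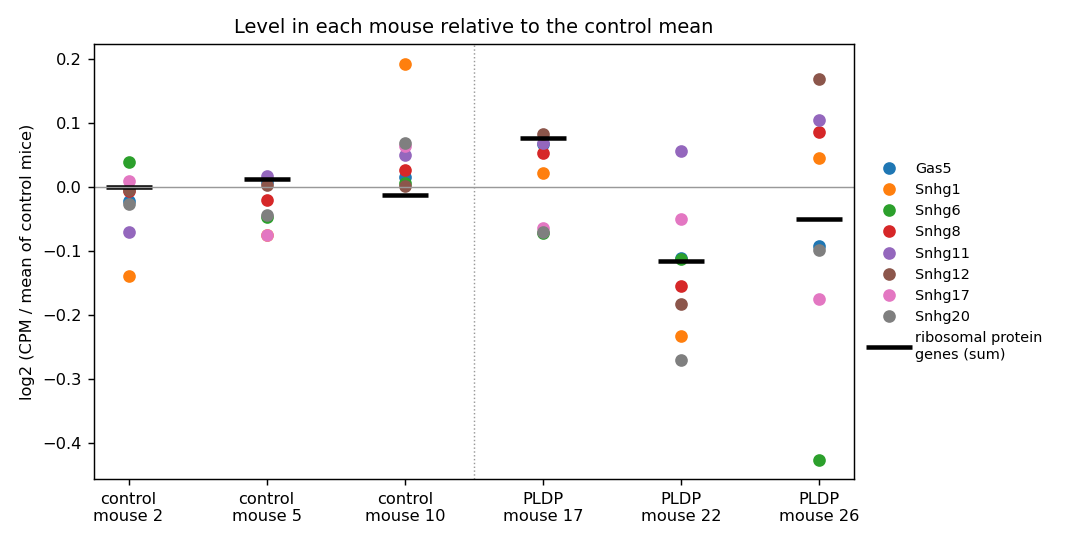
Level of 8 host genes in each mouse relative to the mean of the control mice (log2 of the CPM ratio), with the summed ribosomal protein genes as bars. Snhg3, at 30 counts or fewer, is left out. Most hosts lay below the control mean in PLDP mouse 22, as the ribosomal protein genes did.

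Genes that share a start region with a host gene were compared with it. Zbtb37, transcribed away from Gas5 with starts 427 bases apart, had a log2 fold change of 0.022 (95% confidence interval -0.136 to 0.181). Slc3a2, the heavy chain of amino acid transporters, starts 106 bases from Snhg1 on the other strand and had a log2 fold change of -0.006 (95% confidence interval -0.098 to 0.086). Rcc1, which starts 81 bases from Snhg3 on the same strand, had a log2 fold change of 0.057 (95% confidence interval -0.149 to 0.264). None of these 3 passed the test, as was the case for their hosts.

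The snoRNAs themselves were scarcely counted in these libraries of polyadenylated RNA. Of the 33, 28 had a row, and all 25 that overlap an annotated host exon had 0 counts in every mouse. Where every read of a snoRNA can be counted for it, a count of 0 allows up to 3 counts per mouse from counting error alone. How reads that lie in both a host and its snoRNA were counted is not given in the sources used here. If such reads were left out, a 0 at these 25 sets no limit, and the host lacks those reads too. Whether they were left out was not tested. The 3 outside host exons had counts in some mouse. Snora73b had 10, 11 and 9 in control mice and 10, 8 and 5 in PLDP mice, and Snord87 had at most 2. Reads of a mature snoRNA and of a longer RNA that contains it cannot be told apart in these counts.

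Related genes were taken from lists by role. Other noncoding hosts had none of 9 tested genes called, with a median log2 fold change of 0.01. The nearest to the threshold was Zfas1, at -0.161 (edgeR Benjamini-Hochberg adjusted p = 0.635), and Snhg14, the long host of the Prader-Willi region, was at 0.113 (edgeR Benjamini-Hochberg adjusted p = 0.761). Among 32 protein-coding hosts, 1 was called, Eif4a2, a translation initiation helicase, which fell by 0.109 on the log2 scale (edgeR Benjamini-Hochberg adjusted p = 0.343). It was at 601.9, 611.2 and 603.3 CPM in control mice and at 562.1, 560.6 and 562.1 in PLDP mice. Over all genes with an annotated nested snoRNA, 12 of 265 tested were higher and 9 lower, 7.92% in all, beside 8.6% of all features.

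Of the genes for proteins that bind or assemble with snoRNAs, 1 was called, where 8.6% of all features were called in either direction. Of 4 box C/D core proteins, Nop58 rose from 42.88 ± 3.122 to 47.8 ± 1.33 CPM (SD, n = 3 each, log2 fold change 0.155, edgeR Benjamini-Hochberg adjusted p = 0.461). The Nop58 call was lost without control mouse 10 and without PLDP mouse 26. None of 4 box H/ACA core proteins and none of 11 assembly factors was called, with medians of 0.031 and 0.011. Dkc1, the pseudouridine synthase, was at 0.133 (edgeR Benjamini-Hochberg adjusted p = 0.639).

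Among 16 genes of nonsense-mediated decay and the exon junction complex, 4 were higher and none lower, with a median of 0.05, beside 4.91% higher and 3.69% lower of all features. Upf1, the helicase at the center of this pathway, rose by 0.152 (edgeR Benjamini-Hochberg adjusted p = 0.417), and Magoh and Casc3 of the exon junction complex also passed the unadjusted threshold. The call was lost for Upf1 without control mouse 5, and with 1 mouse removed at a time it was lost 3 times for Magoh and 4 times for Casc3. Magoh was at a low level, with means of 1.824 CPM in control mice and 2.59 in PLDP mice, and also lost its call with DESeq2. Of 14 mTORC1 and TOP regulators 2 were higher. They were Larp1, which binds TOP mRNAs (0.134, edgeR Benjamini-Hochberg adjusted p = 0.319), and Eif4ebp1, the inhibitor of cap binding (0.529, edgeR Benjamini-Hochberg adjusted p = 0.515). Larp1 kept its call whichever of the 6 mice was removed, and Eif4ebp1 lost it 3 times, without control mouse 5, PLDP mouse 17 or PLDP mouse 22. Eif4ebp1 was also low, with means of 1.537 CPM in control mice and 2.203 in PLDP mice, and was not called with DESeq2.

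Long noncoding RNAs that stay in the nucleus were set beside the hosts. Of 8 tested, 4 were higher in PLDP mice and none lower, with a median of 0.15, where 4.91% of all features were higher and 3.69% lower. Malat1 was at 1041, 1017 and 1112 CPM in control mice and at 1226, 1332 and 1320 in PLDP mice (log2 fold change 0.291, edgeR Benjamini-Hochberg adjusted p = 0.0318). Kcnq1ot1 (0.47, edgeR Benjamini-Hochberg adjusted p = 0.0369), Mirg and Meg3 were the others. Whether these genes differed from the hosts as a group was not tested.

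**Figure D5:**
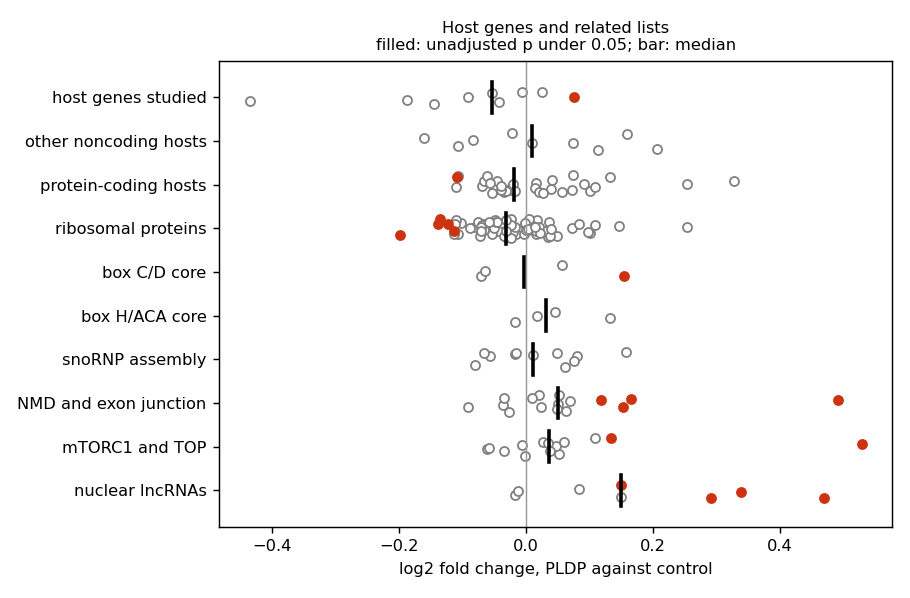
Log2 fold change (PLDP against control) of each tested gene in the host genes and 9 related lists, 1 point per gene, filled where the unadjusted p is under 0.05, with the list's median as a bar. The hosts' median is -0.054 and that of the nuclear long noncoding RNAs is 0.15.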

How the data were processed

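The authors deposited 1 table of raw read counts per gene for each mouse. The submitters' processing notes list cutadapt 2.9, HISAT2 2.2.0, featureCounts 2.6.0, DESeq2 1.6.3 and the builds GRCm38 and GRCh38; the annotation, strand setting and treatment of shared reads are not given in the sources used here, so overlapping genes are uncertain. Totals were 18797061 to 23938729 counts.

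Genes were named from GENCODE M21. The tests used edgeR 4.0.16 (R 4.3.3): filterByExpr (minimum count 10, total 15), TMM factors, a quasi-likelihood fit and test (glmQLFit, glmQLFTest) of diet alone, and Benjamini-Hochberg adjustment over 18580 features. A call was an unadjusted p under 0.05. CPM are TMM-scaled. The study's methods give no model, and p-values measure the spread between 3 mice per diet. In simulated counts 196 of 198 tested genes changed 2-fold were called, as were 5.36% of unchanged features (15 at an adjusted p under 0.05). Smaller changes, such as those of the host genes, were not simulated. The members and lists were chosen with earlier results of these data known. All members, up to 3 genes per list with the smallest p, and neighbours by position were named; Casc3, Meg3, Snhg14 and Dkc1 complete counts or roles. A gene that this rule reaches is not reported here. Alternatives were no or stricter filters, other scalings, DESeq2 1.42.0, other tests, limma 3.58.1 voom, Ensembl genes alone and leaving out each mouse. Python 3.11.15, pandas 2.3.3 and matplotlib 3.10.9 were also used.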

Additional observations from a re-analysis of the deposited data

How the results depend on the processing

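No paired analysis was possible because the diets share no mouse number. Of 15 alternatives, 8 kept Snhg11 past the unadjusted threshold (log2 fold change 0.041 to 0.101 over all 15). The count of host genes called was 0 under library size only, DESeq2 and the likelihood ratio test, where 8.62%, 4.98% and 8.69% of features were called. DESeq2 called 926 features in all, 3 ribosomal protein genes, 12 annotated hosts and 1 mTORC1 or TOP regulator. With no filter, 1 other noncoding host, 5 coding hosts, 13 ribosomal protein genes and 34 annotated hosts were called, beside 6.54% of all features. Coding hosts numbered 2 under library size only, voom and Ensembl genes alone. Hosts whose groups did not overlap numbered 2 under library size only (14.3% of all features), without Snhg11, and 3 under the other scalings and filters. The causes were not tested.

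Leaving out 1 mouse gave 1133 to 2365 features called, 0 to 4 host genes called, 3 to 5 hosts whose groups did not overlap (22.1% to 29.2% of all features), a host median of -0.102 to -0.0112 and a summed difference of 40.0 to 113 CPM. Called genes ranged from 0 to 2 for other noncoding hosts, 1 to 14 for coding hosts, 0 to 2 for box C/D proteins, 0 to 1 for box H/ACA proteins, 0 to 1 for assembly factors, 2 to 4 for nonsense-mediated decay, 1 to 2 for mTORC1 and TOP, 4 to 5 for nuclear long noncoding RNAs, 1 to 35 for ribosomal proteins and 12 to 53 for annotated hosts. List medians ranged from -0.0217 to 0.0916 for other noncoding hosts, -0.0479 to 0.0301 for coding hosts, -0.0244 to 0.0248 for box C/D proteins, -0.0106 to 0.0828 for box H/ACA proteins, -0.0168 to 0.0537 for assembly factors, 0.0345 to 0.0601 for nonsense-mediated decay, 0.0125 to 0.05 for mTORC1 and TOP, 0.0989 to 0.199 for nuclear long noncoding RNAs, -0.0143 to -0.0017 for annotated hosts and -0.0907 to 0.00776 for ribosomal proteins. The highest counts of host genes, coding hosts and ribosomal proteins were without PLDP mouse 17. The uncalled log2 fold changes of Snhg1, Snhg8 and Snhg12 changed sign when 1 mouse was left out. Snhg3 had between 12 and 30 counts per mouse.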
